A study of Schizosaccharomyces pombe with 36 samples.

Results

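The ppk genes of fission yeast, *Schizosaccharomyces pombe*, are protein kinases that were named by number, as putative protein kinases, from the sequence of the genome. They were taken from the expression table by biotype and symbol, as protein-coding genes whose symbol is ppk followed by a number, and the choice used no measured value. The rule found 27 of the 7039 features of the table, among 5133 protein-coding genes, with 12 members on chromosome I, 12 on chromosome II and 3 on chromosome III. The label fits its members in the RefSeq annotation, which describes each of the 27 products as a protein kinase, as a protein with a kinase domain or, for *ppk26*, as a subunit of the PAN complex.

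A protein kinase moves phosphate from ATP to a protein, and the osmotic stress response of fission yeast runs through such a cascade, in which the kinases Wis4 and Wis1 activate the MAP kinase Sty1 and Sty1 acts through the transcription factor Atf1. The ppk names cut across the kinase families. Ppk21, also named Pdk1, belongs with the kinases that activate AGC kinases. Ppk23 is Cdk11, Ppk19 is Vps15, the regulatory kinase of a lipid kinase complex, and Ppk34 is Ckk2, a kinase of calcium and calmodulin dependent kinases. Ppk15 is a DYRK family kinase related to Yak1 of budding yeast, Ppk18 and Ppk31 are relatives of Rim15 of budding yeast and of Greatwall, and Ppk29, Ppk30 and Ppk38 belong to the Ark1/Prk1 family, known in budding yeast for acting on the actin patches of endocytosis.

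RNA was taken from cells labelled *atf21Δ*, for the deletion of the ATF family transcription factor gene *atf21*, and from wild-type (WT) cells, all grown in yeast extract medium. Both strains were sampled immediately before the addition of 1 M sorbitol, a polyol that makes the medium hyperosmotic, and then at 15 and 30 min and at 60, 120 and 180 min. There were 3 biological replicates for each of the 12 groups, which gave 36 strand-specific libraries of total RNA depleted of ribosomal RNA. Levels are in RPKM, which is a read count divided by feature length and by the library's uniquely mapped reads, so they may be compared between genes. No vehicle series without sorbitol was analysed here, so time in culture and sorbitol cannot be told apart.

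The libraries held 7457173 to 20126545 uniquely mapped reads, and rRNA took 34.2 to 50.7% of the reads on features in the libraries labelled *atf21Δ* and 37.5 to 57.5% in WT. The stress marker *gpd1*, which encodes the glycerol-3-phosphate dehydrogenase of glycerol synthesis, rose in both strains at 30 min (log2 changes of 3.02 ± 0.16 in *atf21Δ* and 2.74 ± 0.14 in WT, limma). The targeted gene *atf21* was not absent from the libraries labelled *atf21Δ*: at 30 min it had 15.4, 17.8 and 30.4 RPKM there, against 27.8, 29.2 and 28.1 RPKM in WT. Its change over time did differ between the strains (adjusted p = 0.00075, limma F-test of the interaction). The log2 changes were 4.73 ± 0.24 in *atf21Δ* and 5.90 ± 0.21 in WT at 30 min. At 60 min they were 1.80 ± 0.24 in *atf21Δ* and 0.63 ± 0.21 in WT. The table gives 1 value over the whole span of *atf21*, so which part of the gene the reads came from was not tested, and each statement about the mutant is about the libraries that carry its label.

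The ppk mRNAs differed widely in level among themselves, and their order changed with time. Over the 36 libraries the highest mean levels were those of *ppk11*, a kinase of the PAK type, at 23.5 RPKM and of *ppk21* at 23.3 RPKM, and the lowest were those of *ppk33* at 1.30 RPKM and *ppk31* at 0.479 RPKM. At 0 min *ppk11* had 25.4, 30.5 and 30.9 RPKM in *atf21Δ* and 30.4, 21.2 and 24.3 RPKM in WT. At the low end *ppk31* had 0.201, 0.596 and 0.833 RPKM in *atf21Δ* and 0.646, 0.280 and 0.349 RPKM in WT at 0 min. The strains overlapped for both genes.

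Most neighbours in the order could not be separated. Of the 26 neighbouring pairs at 0 min, 2 in each strain had libraries that did not overlap, *ppk8* above *ppk33* and *ppk33* above *ppk31*. At 30 min *ppk15* took the first place and *ppk21* the second in both strains, while *ppk11* led at 0, 60 and 120 min. In WT at 30 min every *ppk15* library was above every *ppk21* library, and in *atf21Δ* the 2 genes overlapped (48.4 to 70.9 RPKM for *ppk15* and 36.01 to 53.3 RPKM for *ppk21*). *ppk31* was last in every group but those of 30 min, where *ppk33* was last.

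**Figure D1:**
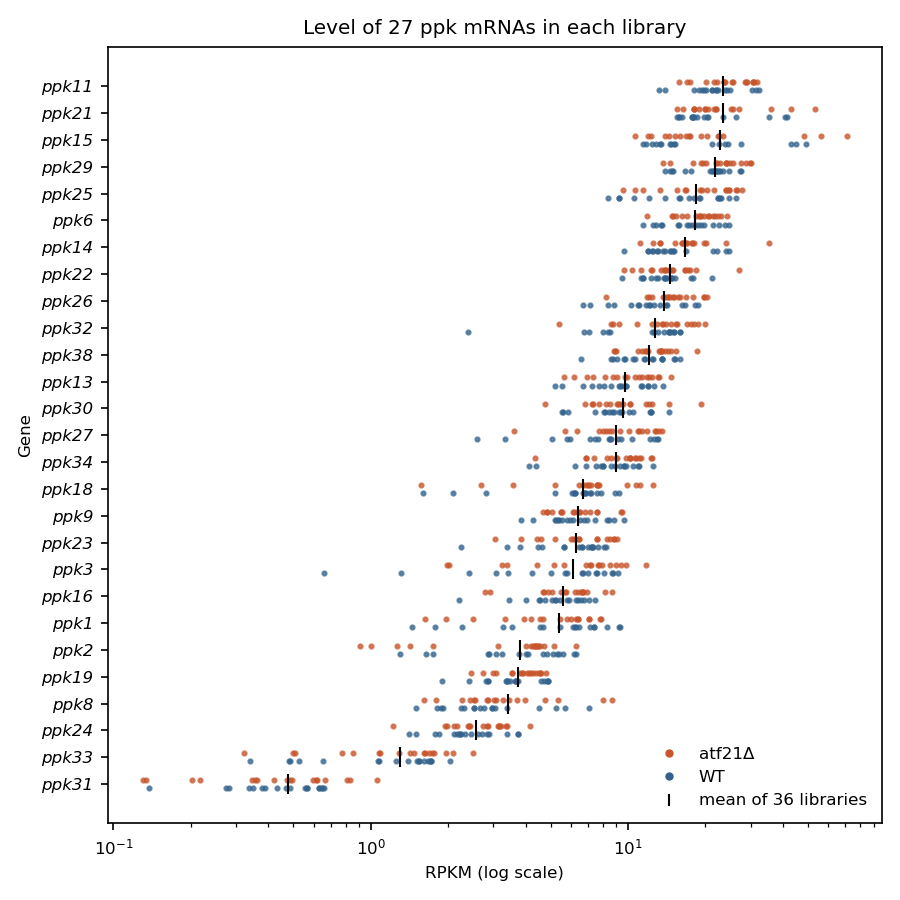
RPKM (log axis) of the 27 ppk mRNAs in each of the 36 libraries, with 1 point per library (atf21Δ above WT in each row) and a bar at the mean. The means run from 0.479 RPKM for ppk31 to 23.5 RPKM for ppk11, and the points of ppk15 reach furthest to the right, to 70.9 RPKM.

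For the tests, the libraries were scaled to a common level, 0.5 was added and the values were log2 transformed, so log2 changes are on the scale of scaled RPKM + 0.5 and understate the changes of low genes. A feature entered when it had at least 1 RPKM in more than 6 of the 36 libraries. Of the 27 ppk genes, 26 passed this filter and were tested among 5882 features. The exception was *ppk31*, with 6 to 57 reads per library. Each strain was fitted on its own with limma, and p-values were adjusted by Benjamini and Hochberg's method over all features. The replicates' separate origin rests on the study's description, and bulk RNA does not tell more cells with an mRNA from more of it per cell.

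Most ppk mRNAs changed after the addition of sorbitol, as most of the protein-coding genes tested did, and the ppk changes went in both directions. Over the time course 19 of the 26 changed in *atf21Δ* (61.7% of all features tested did) and 16 changed in WT (51.6% of all features tested). The counts over protein-coding genes alone were 67.7% in *atf21Δ* and 56.1% in WT. The same 15 members changed in both strains, against 43.9% of all features: *ppk1*, *ppk3*, *ppk8*, *ppk11*, *ppk13*, *ppk14*, *ppk15*, *ppk16*, *ppk18*, *ppk21*, *ppk22*, *ppk23*, *ppk25*, *ppk30* and *ppk32*. *ppk2*, *ppk9*, *ppk29* and *ppk33* passed the test in *atf21Δ* and not in WT, *ppk27* passed it in WT and not in *atf21Δ*, and none of these strain differences passed a test of its own. With 8 members in each strain the change exceeded 2-fold at a time point (16.0% of all features in *atf21Δ* and 16.8% in WT).

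The changes were concentrated at 15 and 30 min. At 15 min 4 members were higher and 6 lower in *atf21Δ* (15.7% and 12.3% of all features), and 3 were higher and 6 lower in WT (12.5% and 10.9%). At 30 min 6 were higher and 9 lower in *atf21Δ* (20.0% and 18.3%), and 6 were higher and 3 lower in WT (15.6% and 13.0%). The counts of lower members at 30 min depended on single libraries and on the fit. Leaving out 1 library gave 5 to 9 in *atf21Δ* (5 without replicate 3 of 0 min or replicate 2 of 30 min) and 1 to 5 in WT (1 without any one replicate of 0 min, 5 without replicate 1 of 15 min), and voom on the reads recovered from the RPKM and 1 fit of all libraries each gave 5 in WT. Later calls were few. At 60 min 1 member was higher and 1 lower in each strain (9.55% and 9.88% in *atf21Δ*, 7.31% and 7.79% in WT), and at 120 min *ppk15* was the 1 higher and *ppk9* the 1 lower member in *atf21Δ* (5.10% and 4.42%). In WT at 120 min none was called by limma (3.33% higher and 2.31% lower over all features), 1 was higher at an unadjusted p under 0.05, and voom called 0. At 180 min 1 was higher in WT (2.74%, with 2.23% lower), and in *atf21Δ* none was called by limma (5.24% and 3.42%), with 1 at an unadjusted p under 0.05 and 0 by voom. The median change of the 26 stayed within 0.16 of 0 on the log2 scale at every time, beside medians of all features within 0.04.

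The directions given are relative to the median of all features. In the unscaled RPKM that median moved at 15 min by -0.43 in *atf21Δ* and -0.46 in WT on the log2 scale, and at 30 min by -0.30 in *atf21Δ* and -0.38 in WT. Had the RPKM been left unscaled, 1 member would be called higher and 11 lower at 15 min in *atf21Δ*, and 1 higher and 14 lower in WT. At 30 min WT had 11 lower members without the scaling.

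**Figure D2:**
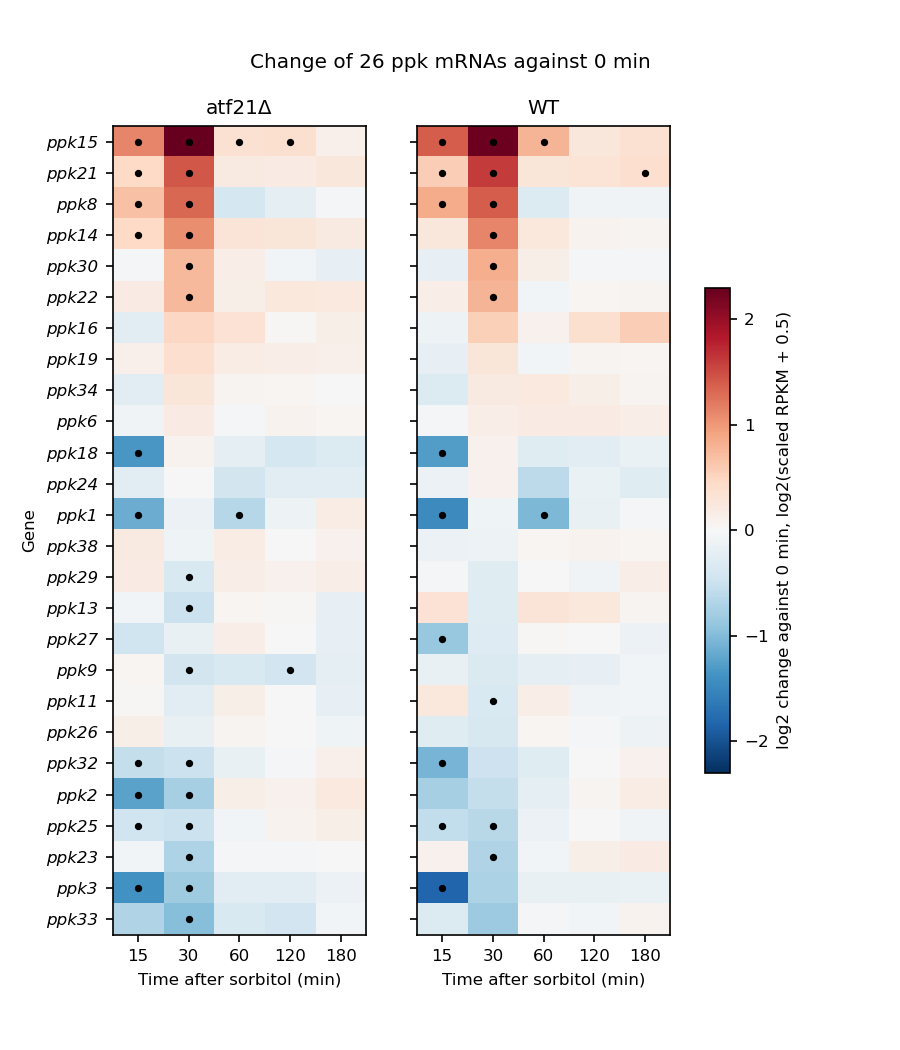
log2 change of 26 ppk mRNAs against 0 min (colour) at 5 times in atf21Δ (left) and WT (right), with a dot where the adjusted p of that time was under 0.05 (limma, Benjamini-Hochberg). Rows are ordered by the WT change at 30 min. The rises peak at 30 min, up to 2.30 for ppk15 in atf21Δ and 2.26 in WT, and the deepest falls stand at 15 min.

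The largest rise was that of *ppk15*, the Yak1-related kinase. It had 48.4, 56.3 and 70.9 RPKM at 30 min and 10.6, 15.3 and 17.3 RPKM at 0 min in *atf21Δ*. In WT it had 45.0, 43.1 and 49.2 RPKM at 30 min and 13.4, 11.4 and 11.7 RPKM at 0 min. All 30 min libraries were far above all 0 min libraries in both strains. The log2 change was 2.30 ± 0.12 in *atf21Δ* (SE, adjusted p = 1.2e-10) and 2.26 ± 0.14 in WT (adjusted p = 8.8e-09, limma). The mRNA was already higher at 15 min, by 1.12 ± 0.12 in *atf21Δ* and 1.40 ± 0.14 in WT, and at 180 min its deposited values overlapped those of 0 min in both strains. On the scaled values the WT libraries of 180 min lay above those of 0 min, with a log2 change of 0.35 ± 0.14 that was not called (adjusted p = 0.13, limma), while those of *atf21Δ* overlapped.

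The window from 250 bases before to 50 bases after the start of each gene in RefSeq (ASM294v3) was searched for TGACGT, the core bound by ATF and CREB factors, on both strands. It was in none of the 27 ppk windows, and in 302 of 5112 protein-coding genes (5.91%). The window of *ppk15* did hold TTACGTAA, a palindrome bound by Yap1-type bZIP factors of yeasts and looked for after the values were seen. It starts 171 bases before the gene and was in no other ppk window and in 24 of all 5112 (0.469%). The 250 bases before *ppk15* (chrI:2584923-2585172, plus strand) are shown because this gene rose most, with TTACGTAA in capitals. A match of letters is a description and shows no binding.
ppk15: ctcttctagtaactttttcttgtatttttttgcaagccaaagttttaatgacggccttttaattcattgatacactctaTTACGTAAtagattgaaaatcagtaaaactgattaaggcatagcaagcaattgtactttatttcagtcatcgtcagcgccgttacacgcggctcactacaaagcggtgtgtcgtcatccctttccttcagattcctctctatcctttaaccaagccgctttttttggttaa

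The other strong rises also peaked at 30 min. *ppk21*, the Pdk1 kinase, had 36.01, 43.1 and 53.3 RPKM at 30 min and 15.5, 18.1 and 27.1 RPKM at 0 min in *atf21Δ*. In WT it had 40.7, 41.5 and 35.4 RPKM at 30 min and 18.6, 15.7 and 15.7 RPKM at 0 min. The 30 min libraries lay above the 0 min libraries in both strains, with log2 changes of 1.43 ± 0.12 in *atf21Δ* (adjusted p = 6.3e-08) and 1.60 ± 0.12 in WT (adjusted p = 6.2e-08, limma). At 15 min *ppk21* was called higher in both strains on the scaled values, by 0.46 ± 0.12 in *atf21Δ* and 0.57 ± 0.12 in WT, while its deposited RPKM overlapped those of 0 min.

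*ppk8* is a low-abundance serine/threonine kinase mRNA. Its levels were 5.35, 8.71 and 8.02 RPKM at 30 min and 3.02, 3.44 and 3.28 RPKM at 0 min in *atf21Δ*. In WT they were 5.24, 5.67 and 7.08 RPKM at 30 min and 2.52, 2.66 and 2.75 RPKM at 0 min. No library of 30 min overlapped those of 0 min, and the log2 changes were 1.31 ± 0.19 in *atf21Δ* (adjusted p = 6.5e-05) and 1.39 ± 0.24 in WT (adjusted p = 0.00057, limma). By 60 min *ppk8* had 2.27, 1.62 and 2.84 RPKM in *atf21Δ* and 1.50, 1.87 and 2.96 RPKM in WT, with log2 changes of -0.41 ± 0.19 in *atf21Δ* and -0.31 ± 0.24 in WT that did not pass the test.

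*ppk14* and *ppk22* encode AGC kinases related to the kinases of budding yeast that activate phospholipid flippases. *ppk14* had 19.7, 24.1 and 35.3 RPKM at 30 min and 13.3, 15.3 and 16.3 RPKM at 0 min in *atf21Δ*, and 24.0, 22.2 and 24.7 RPKM at 30 min and 14.6, 12.4 and 14.9 RPKM at 0 min in WT. The times did not overlap, and *ppk14* rose by 1.06 ± 0.12 in *atf21Δ* (adjusted p = 4.0e-06) and by 1.12 ± 0.15 in WT (adjusted p = 5.2e-05, limma). *ppk22* moved less. It had 18.5, 13.8 and 26.99 RPKM at 30 min and 11.2, 14.4 and 16.7 RPKM at 0 min in *atf21Δ*, and 17.5, 17.9 and 21.1 RPKM at 30 min and 13.9, 13.8 and 14.7 RPKM at 0 min in WT. Its deposited values overlapped in *atf21Δ* and not in WT. The log2 change of *ppk22* was 0.74 ± 0.17 in *atf21Δ* (adjusted p = 0.0039) and 0.78 ± 0.16 in WT (adjusted p = 0.0021, limma), and without the scaling it was 0.44 in *atf21Δ* and 0.40 in WT, with neither called.

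Of the 3 Ark1/Prk1 family members, *ppk30* rose, *ppk29* was lower at 30 min in *atf21Δ* (-0.35 on the log2 scale) and *ppk38* passed no test. *ppk30* had 12.1, 11.7 and 19.2 RPKM at 30 min and 8.22, 10.2 and 12.3 RPKM at 0 min in *atf21Δ*, and 12.3, 12.3 and 14.4 RPKM at 30 min and 9.43, 8.46 and 10.4 RPKM at 0 min in WT. The *atf21Δ* libraries overlapped on the deposited scale and the WT libraries did not. The log2 change of *ppk30* was 0.74 ± 0.18 in *atf21Δ* (adjusted p = 0.0059) and 0.83 ± 0.13 in WT (adjusted p = 0.00033, limma), and without the scaling it was 0.45 in each, past the threshold in WT and not in *atf21Δ*.

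**Figure D3:**
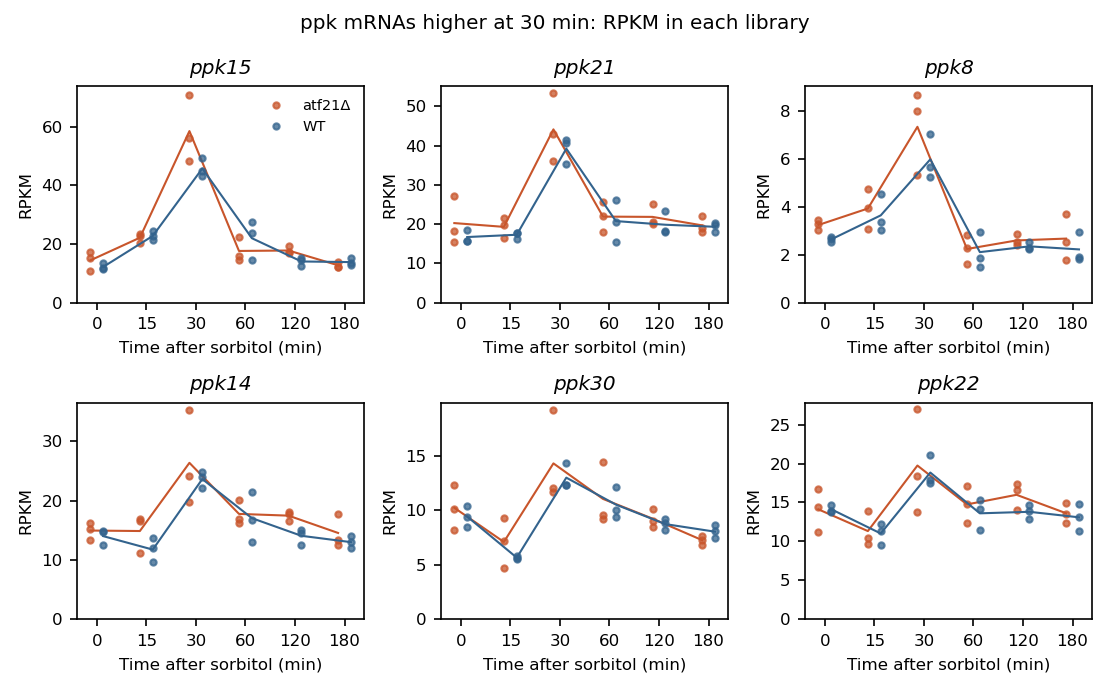
RPKM of the 6 ppk mRNAs that were higher at 30 min in both strains, with 1 point per library and a line through the mean of 3 libraries (atf21Δ left of WT at each time). Each peaks at 30 min, where the ppk15 libraries lie between 43.1 and 70.9 RPKM.

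The deepest falls were those of 15 min. In *atf21Δ* *ppk2*, *ppk3*, *ppk25* and *ppk32* were called lower at both 15 and 30 min, and in WT *ppk25* was. *ppk3*, whose product joins a kinase domain to HEAT repeats, had 2.02, 3.23 and 1.99 RPKM at 15 min and 7.96, 11.8 and 9.83 RPKM at 0 min in *atf21Δ*. In WT it had 0.657, 2.40 and 1.31 RPKM at 15 min and 9.18, 6.68 and 8.72 RPKM at 0 min. Every 15 min library was below every 0 min library, and the log2 changes were -1.39 ± 0.16 in *atf21Δ* (adjusted p = 3.6e-06) and -1.82 ± 0.26 in WT (adjusted p = 0.00010, limma). At 30 min it was still below all 0 min libraries, at 3.40, 4.42 and 5.15 RPKM in *atf21Δ* and 3.41, 3.07 and 4.22 RPKM in WT, with log2 changes of -0.81 ± 0.16 in *atf21Δ* (adjusted p = 0.0010) and -0.74 ± 0.26 in WT, which was not called (adjusted p = 0.069). No later change of *ppk3* was called, and at 60 min it had 7.63, 7.16 and 8.49 RPKM in *atf21Δ* and 5.68, 7.56 and 8.69 RPKM in WT.

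*ppk1*, a serine/threonine kinase, had 1.62, 2.50 and 1.96 RPKM at 15 min and 5.45, 7.87 and 7.81 RPKM at 0 min in *atf21Δ*. In WT it had 1.77, 2.26 and 1.44 RPKM at 15 min and 6.20, 9.24 and 9.33 RPKM at 0 min. The times did not overlap in either strain, with log2 changes of -1.13 ± 0.15 in *atf21Δ* (adjusted p = 2.0e-05) and -1.47 ± 0.23 in WT (adjusted p = 0.00029, limma). At 30 min its change was -0.14 ± 0.15 in *atf21Δ* and -0.09 ± 0.23 in WT, and neither was called. At 60 min *ppk1* was the only member called lower, with a log2 change of -0.65 ± 0.15 in *atf21Δ* and -1.02 ± 0.23 in WT.

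*ppk18*, the relative of Rim15, had 1.57, 2.68 and 3.57 RPKM at 15 min and 7.09, 10.8 and 12.6 RPKM at 0 min in *atf21Δ*. In WT it had 2.80, 2.09 and 1.60 RPKM at 15 min and 8.87, 6.83 and 9.26 RPKM at 0 min. Again no library overlapped, and the log2 changes were -1.34 ± 0.18 in *atf21Δ* (adjusted p = 3.3e-05) and -1.29 ± 0.15 in WT (adjusted p = 1.1e-05, limma). At 30 min the change of *ppk18* was 0.09 ± 0.18 in *atf21Δ* and 0.11 ± 0.15 in WT, and neither was called.

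These 3 mRNAs, grouped here by their falls, share features that the rule did not use. Because of that grouping the features are a description, and a link with the falls was not tested. The table's spans of *ppk1*, *ppk3* and *ppk18* begin 1300, 951 and 1294 bases upstream of the RefSeq start of the same gene, and 4 of the 27 members (the fourth is *ppk31*, with 750 bases) and 294 of 5099 matched genes had more than 500 such bases. Among the other members called lower at 15 min, the spans of *ppk2*, *ppk25*, *ppk27* and *ppk32* began at most 47 bases upstream. How many of the reads of *ppk1*, *ppk3* and *ppk18* lay in the upstream part was not tested. At *ppk3* an ncRNA annotated within that part on the same strand, *SPNCRNA.229*, is listed at 0 in all 36 libraries. Whether reads there were counted for *ppk3* or left out was not tested, so this value does not show that the part had no reads. The RefSeq windows of *ppk1*, *ppk3* and *ppk18* each held CCCCT, the core of the stress response element of yeasts, read on the gene's strand and looked for after the values were seen. *ppk16* held it on the gene's strand as well, and *ppk13* on the other strand. On either strand it was in 5 of the 27 windows (18.5%) and in 534 of 5112 (10.4%). The share on the gene's strand alone was not counted. CCCCT was in none of the windows of the 6 genes called higher at 30 min in both strains. *ppk16*, which held it, had a rise as its largest change in both strains. The windows of *ppk2*, *ppk25*, *ppk27* and *ppk32*, also called lower at 15 min in at least 1 strain, did not hold CCCCT. The 30 bases around it are given with CCCCT in capitals, at chrI:1906927-1906956 (plus strand) for *ppk1*, chrI:3711418-3711447 (plus) for *ppk3* and chrI:3980962-3980991 (minus) for *ppk18*, in ASM294v3. All 3 stretches lie inside the longer spans of the table.
ppk1: ttgctctacttcCCCCTtgcttccatccat
ppk3: atccgtacccatCCCCTcaaaacactttta
ppk18: ctcgcgatctctCCCCTtagtgaatcctga

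*ppk32*, a serine/threonine kinase, was less deeply lowered. It had 5.39, 9.25 and 10.8 RPKM at 15 min and 14.0, 18.1 and 19.9 RPKM at 0 min in *atf21Δ*, and 6.74, 7.03 and 2.38 RPKM at 15 min and 15.9, 15.9 and 14.4 RPKM at 0 min in WT. The times did not overlap, but the lowest library of each strain at 15 min stood apart from its replicates. The log2 change of *ppk32* was -0.54 ± 0.16 in *atf21Δ* (adjusted p = 0.021) and -1.07 ± 0.23 in WT (adjusted p = 0.0037, limma). Without replicate 1 of *atf21Δ* at 15 min it was -0.34 (adjusted p = 0.112), and without replicate 3 of WT at 15 min it was -0.68 and still called.

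*ppk2*, also named *tea5*, had 0.908, 1.42 and 1.00 RPKM at 15 min and 4.37, 4.36 and 4.72 RPKM at 0 min in *atf21Δ*, which do not overlap. In WT it had 2.86, 1.30 and 1.75 RPKM at 15 min and 4.10, 4.84 and 6.18 RPKM at 0 min, which overlapped once scaled. The change was -1.24 ± 0.19 in *atf21Δ* (adjusted p = 0.00014) and -0.76 ± 0.29 in WT (adjusted p = 0.092, limma). The falls of *ppk25*, also named *kin2*, lasted over both early times. In *atf21Δ* its log2 change of 15 min was -0.46 ± 0.14 and that of 30 min -0.49 ± 0.14. In WT these were -0.56 ± 0.16 and -0.64 ± 0.16, and all were called. *ppk27* was called lower at 15 min in WT alone, with a log2 change of -0.88 ± 0.24 (adjusted p = 0.017, limma). In *atf21Δ* the 15 min change of *ppk27* was -0.45 and was not called.

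**Figure D4:**
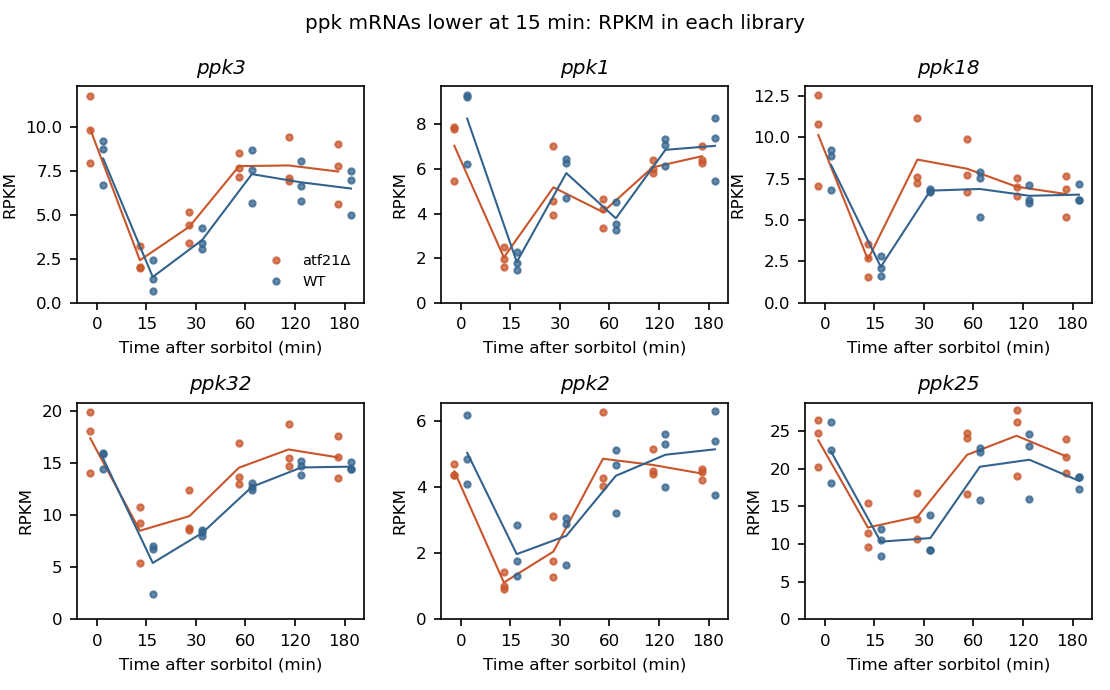
RPKM of 6 ppk mRNAs that were lower at 15 min, with 1 point per library and a line through the mean of 3 libraries (atf21Δ left of WT at each time); ppk2 was called in atf21Δ alone. ppk3, ppk1 and ppk18 have their lowest libraries at 15 min, down to 0.657 RPKM for ppk3 in WT, and ppk1 dips again at 60 min.

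Other members were called lower at 30 min and not at 15 min. *ppk23*, which encodes Cdk11, had 3.05, 4.45 and 3.84 RPKM at 30 min and 6.44, 9.04 and 8.83 RPKM at 0 min in *atf21Δ*, and 2.24, 3.81 and 3.40 RPKM at 30 min and 8.20, 5.63 and 7.22 RPKM at 0 min in WT. These groups did not overlap, and the log2 change of *ppk23* was -0.72 ± 0.16 in *atf21Δ* (adjusted p = 0.0028) and -0.70 ± 0.22 in WT (adjusted p = 0.042, limma). *ppk11* was lower at 30 min in WT (-0.34 ± 0.10, adjusted p = 0.035) and changed over the time course in *atf21Δ* with no single time called. In *atf21Δ* *ppk9*, of the AMPK-related kinases, and *ppk13*, *ppk29* and *ppk33* were also called lower at 30 min, with log2 changes of -0.35 to -0.97. The *ppk33* libraries of 15 min in *atf21Δ* lay below all those of 0 min too, deposited and scaled, without a call.

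*ppk16*, which carries the synonym *mug92* of a gene upregulated in meiosis, passed the test over the time course in both strains without passing it at any single time in the limma fit on log2 values. Its largest log2 change was 0.47 ± 0.17 at 30 min in *atf21Δ* (adjusted p = 0.065) and 0.56 ± 0.20 at 180 min in WT (adjusted p = 0.068, limma). At these times it had 5.67, 6.70 and 8.14 RPKM in *atf21Δ* and 6.75, 5.92 and 7.44 RPKM in WT, beside 4.66, 6.68 and 6.61 RPKM in *atf21Δ* and 4.54, 5.21 and 5.08 RPKM in WT at 0 min. The *atf21Δ* libraries overlapped on the deposited scale, and not once scaled, and the WT libraries did not overlap. These calls depended on the fit: *ppk16* passed at both times with voom (adjusted p = 0.035 in *atf21Δ* and 0.032 in WT) and with the replicate number as a block (adjusted p = 0.031 in *atf21Δ* and 0.049 in WT).

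*ppk6*, *ppk19* (Vps15), *ppk24*, *ppk26* (of the PAN deadenylase complex), *ppk34* (Ckk2) and *ppk38* passed the test in neither strain. Their largest log2 changes lay between -0.60, for *ppk24* at 60 min in WT, and 0.39, for *ppk19* at 30 min in *atf21Δ*. The 2 least abundant members could be followed only roughly. *ppk33* had 0.855, 0.321 and 0.774 RPKM at 30 min and 1.77, 2.09 and 2.50 RPKM at 0 min in *atf21Δ*, which do not overlap, and its change of -0.97 ± 0.27 was called (adjusted p = 0.016, limma). In WT *ppk33* had 0.488, 0.339 and 0.655 RPKM at 30 min and 2.04, 1.08 and 1.72 RPKM at 0 min, and the change of -0.84 ± 0.30 was not called (adjusted p = 0.075), although these libraries did not overlap either. *ppk31*, also named *mug25*, had 0.666, 1.06 and 0.811 RPKM at 30 min in *atf21Δ* and 0.660, 0.556 and 0.379 RPKM in WT, which overlapped its deposited 0 min values in both.

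Whether the response of the ppk mRNAs differed between the strains was tested over all 36 libraries. None of the 26 had a strain-by-time interaction (limma, adjusted p under 0.05), none had an unadjusted p under 0.05, and voom on the recovered reads called 0 with 1 at an unadjusted p under 0.05. Over all features 2 were called (0.0340%), with *atf21* among them, and 4.56% had an unadjusted p under 0.05. The lowest interaction p among the members were those of *ppk15* (unadjusted p = 0.0504, adjusted p = 1.00) and *ppk16* (unadjusted p = 0.173, adjusted p = 1.00). For *ppk15* the strains were furthest apart at 60 min, with 14.4, 16.0 and 22.5 RPKM in *atf21Δ* and 14.6, 27.5 and 23.8 RPKM in WT, which overlap.

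At single times no ppk mRNA differed between the strains after adjustment, and the lowest adjusted p was 0.354 (limma). Over all features 0 to 2 were called in a direction at a time, or up to 0.0340%, with 0.0170% higher in *atf21Δ* at 0 min. At 15 min 4 of the 26 had an unadjusted p under 0.05 (14.6% of all features did), at 30 min 1 (8.67%) and at 60 min 1 (3.86%), and at 0, 120 and 180 min there were 0 (1.72%, 1.87% and 3.33%). voom called none either, with 4 at 15 min and 3 at 60 min at an unadjusted p under 0.05. The 4 at 15 min were *ppk2*, with a log2 difference of -0.76 ± 0.25 (*atf21Δ* minus WT), and *ppk3*, *ppk26* and *ppk32*, with differences of 0.53 ± 0.22, 0.44 ± 0.14 and 0.53 ± 0.20. Of these, *ppk26* had libraries that did not overlap, with 12.1, 13.7 and 13.9 RPKM in *atf21Δ* and 8.81, 10.3 and 6.72 RPKM in WT. The later ones were *ppk1* at 30 min (-0.41 ± 0.20) and *ppk15* at 60 min (-0.37 ± 0.13). The median difference of the 26 was within 0.06 of 0 on the log2 scale at each time.

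**Figure D5:**
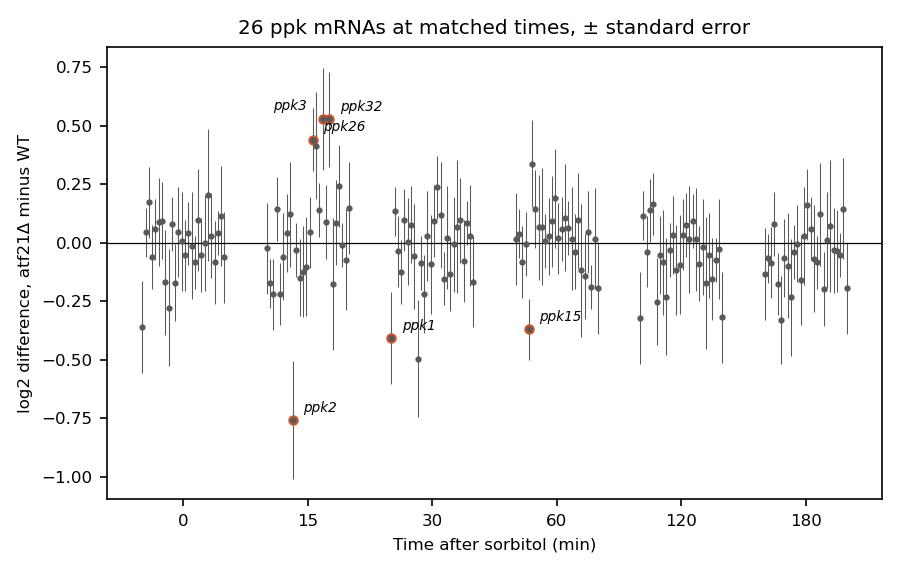
log2 difference of 26 ppk mRNAs, atf21Δ minus WT, at each time (points, ± SE of the limma fit). The members with an unadjusted p under 0.05 are named, and none passed after adjustment. The widest differences stand at 15 min, from -0.76 for ppk2 to 0.53 for ppk3.

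Several ppk genes overlap features annotated on the other strand. In the table's coordinates 27 features lay opposite 19 of the 27 members, 16 of them protein-coding genes, 10 ncRNAs and 1 a tRNA gene, and 17 of the 27 covered less than 10% of the member. Of the 22 tested, 13 changed in *atf21Δ*, 15 in WT and 11 in both, beside 61.7%, 51.6% and 43.9% of all features. Their median log2 change at 30 min was -0.39 in *atf21Δ* and -0.35 in WT. The levels and changes of opposite features cover each whole feature, so RNA over the shared bases was not measured apart. The libraries are strand-specific, so sense and antisense reads were counted apart, and how well the strands were separated was not tested. On the same strand 8 features overlapped 7 members, by up to 126 bases for a protein-coding gene (*spn7* at *ppk24*), and reads in such a stretch could belong to either gene.

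The widest overlaps were those of *vma16*, a subunit gene of the vacuolar ATPase, over 97.4% of *ppk11*, of *SPNCRNA.1421* over 88.2% of *ppk31*, of *SPNCRNA.1271* over 75.3% of *ppk34* and of *SPNCRNA.930* over 59.0% of *ppk3*. *vma16* was called lower at 30 min in both strains, by -0.46 ± 0.14 in *atf21Δ* and -0.45 ± 0.12 in WT. *ppk11* was called lower at that time in WT and not in *atf21Δ*. *SPNCRNA.1421* averaged 1.68 RPKM over the 36 libraries and was above *ppk31* in all 36. *SPNCRNA.930* averaged 0.641 RPKM and was below *ppk3* in all 36. *SPNCRNA.1271* had 2.37, 3.73 and 1.84 RPKM at 60 min and 0.537, 0.596 and 0.468 RPKM at 0 min in *atf21Δ*, a log2 change of 1.52 ± 0.40 (adjusted p = 0.012). In WT *SPNCRNA.1271* had 1.17, 3.35 and 1.48 RPKM at 60 min and 0.962, 0.408 and 0.792 RPKM at 0 min, a change of 0.94 ± 0.43 (adjusted p = 0.18, limma). The times did not overlap in either strain, and *ppk34* opposite it passed no test.

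The other 10 opposite features that changed in both strains can be set beside their ppk genes. *pnc1*, over 32.3% of *ppk29*, had 9.16, 8.62 and 9.41 RPKM at 30 min and 3.88, 4.69 and 4.46 RPKM at 0 min in *atf21Δ*, and 8.64, 6.85 and 7.31 RPKM at 30 min and 4.74, 2.90 and 4.06 RPKM at 0 min in WT. It rose by 1.26 ± 0.14 in *atf21Δ* and by 1.26 ± 0.22 in WT, with no overlap of the times, while *ppk29* was lower at 30 min in *atf21Δ*. *nup45*, a nucleoporin gene over 8.61% of *ppk8*, had 8.17, 6.41 and 13.2 RPKM at 30 min and 17.0, 20.6 and 23.8 RPKM at 0 min in *atf21Δ*, and 7.09, 9.25 and 8.83 RPKM at 30 min and 19.7, 17.9 and 20.0 RPKM at 0 min in WT. Its log2 change was -0.85 ± 0.17 in *atf21Δ* and -0.78 ± 0.21 in WT, with no overlap, at the time when *ppk8* was highest.

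*SPBC1778.09*, over 6.96% of *ppk21*, had 6.14, 9.78 and 11.2 RPKM at 15 min and 19.2, 26.9 and 31.3 RPKM at 0 min in *atf21Δ*, and 5.06, 6.21 and 6.79 RPKM at 15 min and 19.6, 17.5 and 22.9 RPKM at 0 min in WT. It was lower at 15 min without overlap, with log2 changes of -0.98 ± 0.14 in *atf21Δ* and -1.15 ± 0.17 in WT. *snt2*, over 45.3% of *ppk13*, had 2.66, 2.42 and 3.83 RPKM at 30 min and 2.97, 2.89 and 3.91 RPKM at 0 min in *atf21Δ*, and 3.42, 3.83 and 3.79 RPKM at 30 min and 3.06, 2.76 and 3.45 RPKM at 0 min in WT. The times overlapped in both strains, and the 30 min change of *snt2* was 0.14 ± 0.18 in *atf21Δ*, not called, and 0.57 ± 0.17 in WT, called on the scaled values.

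The remaining 6 each covered less than 5% of the member and were lower at 30 min in both strains, with no overlap on the deposited values. *rif1*, opposite *ppk6*, had 9.44, 11.5 and 13.8 RPKM at 30 min and 20.8, 27.8 and 31.1 RPKM at 0 min in *atf21Δ*, and 11.9, 9.80 and 8.91 RPKM at 30 min and 25.1, 21.1 and 23.6 RPKM at 0 min in WT. *SPAC890.04c*, opposite *ppk16*, had 23.6, 30.7 and 29.9 RPKM at 30 min and 42.3, 44.6 and 46.4 RPKM at 0 min in *atf21Δ*, and 26.9, 19.4 and 16.6 RPKM at 30 min and 48.9, 37.2 and 44.1 RPKM at 0 min in WT. Neither *ppk6* nor *ppk16* was called at 30 min.

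*SPBP23A10.11c*, opposite *ppk32*, had 24.9, 19.2 and 30.8 RPKM at 30 min and 54.5, 75.8 and 88.3 RPKM at 0 min in *atf21Δ*, and 17.8, 25.7 and 23.2 RPKM at 30 min and 60.2, 80.9 and 87.1 RPKM at 0 min in WT. *hmg1*, which encodes HMG-CoA reductase of sterol synthesis, had 10.1, 8.07 and 13.1 RPKM at 30 min and 22.0, 28.1 and 30.1 RPKM at 0 min in *atf21Δ*, and 9.09, 12.1 and 13.4 RPKM at 30 min and 24.4, 29.0 and 30.6 RPKM at 0 min in WT. It lies opposite an end of *ppk33*, as *SPCC162.11c* does.

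*SPCC162.11c* had 9.51, 7.69 and 13.2 RPKM at 30 min and 20.5, 25.2 and 27.7 RPKM at 0 min in *atf21Δ*, and 11.4, 8.97 and 8.22 RPKM at 30 min and 25.4, 19.0 and 19.8 RPKM at 0 min in WT. *SPCC830.11c*, opposite *ppk34*, had 7.91, 10.5 and 6.60 RPKM at 30 min and 16.5, 19.4 and 17.9 RPKM at 0 min in *atf21Δ*, and 8.34, 5.96 and 6.36 RPKM at 30 min and 22.4, 14.9 and 14.8 RPKM at 0 min in WT. Over these 6 the log2 changes at 30 min ran from -0.35 for *SPAC890.04c* to -1.21 for *SPBP23A10.11c* in *atf21Δ* and from -0.66 for *SPAC890.04c* to -1.36 for *SPBP23A10.11c* in WT. In *atf21Δ*, *ppk32* and *ppk33* were themselves called lower at 30 min, the same direction as *SPBP23A10.11c*, *hmg1* and *SPCC162.11c* opposite them. In WT neither *ppk32* nor *ppk33* was called at that time.

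Protein kinases with other names moved in both directions too. Of 75 such kinases listed from general knowledge, 74 were in the table and 72 were tested, of which 54 changed in *atf21Δ* (61.7% of all features), 50 in WT (51.6%) and 45 in both (43.9%). At 30 min 23 were higher and 8 lower in *atf21Δ* (20.0% and 18.3% of all features), and 21 were higher and 5 lower in WT (15.6% and 13.0%). Their median log2 change at 30 min was 0.17 in *atf21Δ* and 0.29 in WT, beside -0.13 and -0.10 for the ppk mRNAs in the same strains. At 15 min the medians of the 2 lists were closer. They were -0.09 in *atf21Δ* and -0.15 in WT for these kinases, and -0.06 and -0.16 for the ppk mRNAs. The largest change was that of *srk1*, the MAPK-activated kinase downstream of Sty1, at 108, 123 and 161 RPKM at 30 min and 8.68, 12.2 and 11.9 RPKM at 0 min in *atf21Δ*, and 96.8, 117 and 118 RPKM at 30 min and 9.21, 10.4 and 10.3 RPKM at 0 min in WT. *srk1* rose by 3.81 ± 0.14 in *atf21Δ* and 3.79 ± 0.18 in WT, more than any ppk mRNA in either strain.

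The next kinases by size of change at 30 min were *pka1*, the catalytic subunit of protein kinase A (2.73 ± 0.12 in *atf21Δ* and 2.68 ± 0.12 in WT), and *hri1*, an eIF2 alpha kinase (2.02 ± 0.10 in *atf21Δ* and 1.77 ± 0.20 in WT). *gad8*, the AGC kinase downstream of TORC2, rose by 1.36 ± 0.11 in *atf21Δ* and 1.16 ± 0.11 in WT, and *kin1*, a cell polarity kinase, by 1.16 ± 0.16 in *atf21Δ* and 1.33 ± 0.20 in WT. *lkh1*, a LAMMER kinase, was lower at 15 min, as *ppk1*, *ppk3* and *ppk18* were, with a log2 change of -1.14 ± 0.18 in *atf21Δ* and -1.37 ± 0.29 in WT.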

How the data were processed

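The libraries, made with a SOLiD total RNA kit after ribosomal reduction, were read on a SOLiD instrument. The authors aligned the reads with SHRiMP2 at default parameters to the PomBase genome and annotation, kept reads that aligned to exactly 1 locus and counted them by strand. The deposited RPKM were computed by the authors over the full span of each feature. They were divided by each library's uniquely mapped reads, without further scaling between libraries or pooling. Reads per feature were recovered from them (100% of 253404 values were whole within 0.01), and voom on these reads was an alternative.

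Here library factors came from log ratios to a common library, averaged without weights after trimming 30% of ratios and 5% of levels, and limma 3.58.1 in R 4.3.3, with a mean-variance trend, was fitted on log2(RPKM + 0.5) to each strain for time and to all 36 libraries for strain. A feature had changed when the F-test over the 5 contrasts had an adjusted p under 0.05. Calls at single times were adjusted over features and times. The procedure was tested on simulated reads, with balanced rises and falls at 30 min in WT and no shift in level between libraries. That simulation therefore did not test the scaling. Alternatives were pseudocounts of 0.1 and 1, no filter, a filter at 5 RPKM, no scaling, no trend, 1 fit of all libraries, a replicate block and leaving out each library.

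Library values are given for the 10 members with the largest change among those changed in both strains, the 2 with the lowest interaction p, the 2 highest and 2 lowest in mean level, and the opposite features that changed in both. Values of other members were chosen after they were seen. The members and lists were chosen with earlier results of these data known. Sequences are from RefSeq (ASM294v3), matched by gene ID for all 27 members, and 99.4% of the table's genes share an end with it. No protein sequences were used here. Python 3.11.15 with pandas 2.3.3 and matplotlib 3.10.9 made the tables and figures.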

Additional observations from a re-analysis of the deposited data

How the results depend on the processing

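Over the alternatives and the libraries left out, the counts of ppk members changed over the time course stayed within 1.5 times in both strains (16 to 20 in *atf21Δ* and 14 to 24 in WT), and none of the values tested turned in direction. Counts at single times moved more, and the cause was not tested. Without the scaling, in *atf21Δ* 1 member was higher and 11 lower at 15 min, 0 were higher at 60 min, and 0 were higher and 0 lower at 120 min. In WT without the scaling 1 was higher and 14 lower at 15 min, 11 were lower at 30 min and 0 were higher at 180 min. The lower members at 30 min in WT were 5 with voom and 5 in 1 fit of all libraries. The higher member at 60 min in *atf21Δ* was lost (0) with no filter, with voom, without the trend and in 1 fit. In WT the lower members at 60 min were 2 without the trend and 2 in 1 fit, and the higher members at 180 min were 0 without the trend and 2 with voom and 2 in 1 fit. The lower members at 120 min in *atf21Δ* were 2 with voom and 0 in 1 fit. *ppk32* at 15 min in *atf21Δ* lost its call in 1 fit (adjusted p = 0.063, range over the alternatives 0.0011 to 0.112), and *ppk16* gained one with voom at 30 min in *atf21Δ* (0.49) and at 180 min in WT (0.65).

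Leaving out each library in turn gave 5 to 9 lower members at 30 min in *atf21Δ* (5 without replicate 3 of 0 min, 5 without replicate 2 of 30 min) and 1 to 5 in WT (1 without each replicate of 0 min, 5 without replicate 1 of 15 min). In *atf21Δ* it gave 4 to 7 lower at 15 min, 0 to 2 higher and 1 to 2 lower at 60 min, 0 to 2 higher and 0 to 1 lower at 120 min and 0 to 1 higher at 180 min. In WT it gave 2 to 4 higher and 4 to 6 lower at 15 min and 0 to 2 higher at 180 min. The call at 60 min in *atf21Δ* rests on *ppk15* near the threshold (adjusted p = 0.047) and was lost without most libraries, that at 120 min without replicates 1 and 2 of 0 min and each replicate of 120 min, and that at 180 min in WT without each replicate of 0 min and replicates 1 and 2 of 180 min. *ppk32* at 15 min in *atf21Δ* lost its call without replicates 2 and 3 of 0 min and replicate 1 of 15 min. The interaction and strain counts were 0 to 0.

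Same-numbered replicates of the times deviated together in part (r from -0.16 to 0.50 over 30 pairs, 20 of them over 0.1), 24 of 30 samples correlated best with their own number at 0 min, and in 1 of 10 comparisons, WT at 30 min, all 3 pairs were over 0.1. Between the strains 8 of 18 pairs were. The main fit did not use the numbers, by a rule that asked every pair to be over 0.1. The 24 of 30 samples show that same-numbered samples were partly alike, which the main fit ignored. With the replicate block 19 members changed in *atf21Δ* and 17 in WT, 2 were lower at 120 min in *atf21Δ* and 2 higher at 180 min in WT, and *ppk16* was called at 30 min in *atf21Δ* and at 180 min in WT, while at 15 and 30 min in WT no count moved. *ppk31* and *ppk33*, with down to 6 and 13 reads in a library, are limited by depth.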
